A study of Mus musculus with 3 samples.

Results

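Myeloid nuclei of the mouse heart, from a vehicle library and a sunitinib library, were examined through their open chromatin. A barcode counted as a nucleus ("called") when it had 1000 or more fragments on chromosomes 1 to 19 and X and its fragment ends were enriched 4-fold or more around transcription start sites. Called nuclei were chosen by the fragments they carried over 17 marker genes of macrophages, monocytes and other myeloid cells, each read from 2 kb upstream to the end of the gene. A myeloid nucleus had at least 4 such fragments, and they made up at least 4 times the share (0.0292%) that they took of all fragments in the vehicle file. The rule chose 211 of 6574 called nuclei, namely 98 of 2702 under vehicle and 113 of 3872 under sunitinib. The whole series held 6586 called nuclei, because the library given sunitinib plus Yoda1, an activator of the stretch-gated channel PIEZO1, had 12 and was not used.

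Both libraries came from snap-frozen hearts of mice whose genotype is given as WT. The series describes 1 group given vehicle (titled Control) and 1 given sunitinib (titled TKI, for tyrosine kinase inhibitor), and its title concerns the cardiac toxicity of such drugs and PIEZO1. The titles also carry 3 months, which may be an age or a treatment time. Sex and the number of animals behind each library are not stated. With 1 library per group the variation between hearts is unknown, no test was made between groups, and every 95% interval given here covers counting error only.

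Heart macrophages clear dying cells and debris, take up material shed by cardiomyocytes, and present antigen. One part of them descends from embryonic precursors and renews itself in place, and another part is replenished by circulating monocytes. Their growth and survival depend on the receptor CSF1R, and the transcription factor PU.1, encoded by Spi1, opens many of their enhancers. Sunitinib blocks several receptor tyrosine kinases, among them the VEGF and PDGF receptors, KIT, FLT3 and CSF1R. Accessibility is read here as fragments over a gene per 1000000 fragments of the same nuclei (FPM), and it measures open chromatin rather than transcript level.

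Unique fragments numbered 18704581 under vehicle and 23653823 under sunitinib, with 148947808 and 210143978 read pairs behind them. Of the called barcodes, 22 had the same sequence in both. The myeloid nuclei held 339931 fragments under vehicle and 381212 under sunitinib, with medians of 2579.5 and 3022 per nucleus, against 2127.5 and 2349 in the other called nuclei. One vehicle nucleus held 57172 fragments, or 16.8% of all vehicle myeloid fragments, while the next had 10538 and the deepest under sunitinib 17739. This deep nucleus carried 105 fragments over the markers, touched all 17 of them, and met the rule of no other cell class. Doublets were not called, and results that turn on this nucleus are also given without it.

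Promoter sequences are shown first, because a short motif was more frequent in the accessible promoters than in promoters at large, though most of them lacked it. Among 16433 promoters of 300 bases matched to RefSeq (build GRCm38.p6), 116 had at least 5 vehicle myeloid fragments and at least 4 times the frequency in the other vehicle nuclei, away from the 17 markers. The sunitinib library played no part in that choice. There, 81 of the 116 were at least 2-fold more accessible in myeloid nuclei, with a median log2 ratio of 1.65, whereas 9.52% of the 4757 promoters with at least 5 vehicle myeloid fragments were. In 7 of them no sunitinib myeloid fragment was found, and 45 of the 116 would have had under 5 vehicle fragments without the deep nucleus. The letters GAGGAAGT, the core recognised by PU.1, were searched on both strands. They were present in 12 of the 116 (10.3%) and in 3.07% of 11067 promoters with at least 11 fragments over all called nuclei. Of those 12 promoters, 9 were at least 2-fold higher in sunitinib myeloid nuclei. Printed below are 5 of the 12, each from 150 bases before the RefSeq start to 30 after it, 5′ to 3′ on the gene's strand. They are those with the motif inside this span and an interval above 0 in both libraries. Capitals mark the motif, which reads ACTTCCTC on these strands.
Ctss: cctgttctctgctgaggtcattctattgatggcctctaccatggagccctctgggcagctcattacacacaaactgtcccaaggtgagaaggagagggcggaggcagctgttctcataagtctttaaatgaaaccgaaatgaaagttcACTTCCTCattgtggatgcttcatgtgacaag
Fgd2: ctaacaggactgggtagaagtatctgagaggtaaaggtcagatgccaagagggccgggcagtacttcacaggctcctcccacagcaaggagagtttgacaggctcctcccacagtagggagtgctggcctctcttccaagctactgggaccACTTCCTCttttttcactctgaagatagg
Cd53: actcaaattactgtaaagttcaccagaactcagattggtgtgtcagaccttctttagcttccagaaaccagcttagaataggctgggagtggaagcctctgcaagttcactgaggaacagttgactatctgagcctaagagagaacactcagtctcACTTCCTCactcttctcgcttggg
Gapt: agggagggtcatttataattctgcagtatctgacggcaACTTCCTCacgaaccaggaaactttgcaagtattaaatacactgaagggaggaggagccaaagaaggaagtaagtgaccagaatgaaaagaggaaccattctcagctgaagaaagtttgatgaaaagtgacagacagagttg
Dennd1c: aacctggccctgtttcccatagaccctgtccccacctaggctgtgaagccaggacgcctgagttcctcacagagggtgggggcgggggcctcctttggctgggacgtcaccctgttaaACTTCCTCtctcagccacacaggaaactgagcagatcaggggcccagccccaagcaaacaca

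Positions in this paragraph are those of the printed spans. Counts and log2 ratios cover the whole promoter of each gene, which is longer and contains the span. The first span, at chr3:95526636-95526815 on the plus strand, opens Ctss, which encodes the lysosomal protease cathepsin S of antigen-presenting cells. Under vehicle the Ctss promoter held 5 fragments from 98 myeloid nuclei and 2 from 2604 other nuclei (log2 5.68). Under sunitinib it held 3 against 6 (4.15). The printed span of Fgd2, a guanine nucleotide exchange factor for CDC42, lies at chr17:29360764-29360943 on the plus strand. The counts of the Fgd2 promoter were 5 against 5 under vehicle (4.54) and 3 against 6 under sunitinib (4.15). The promoter of Cd53, a leukocyte tetraspanin (chr3:106790120-106790299, minus strand), held 5 against 7 (4.09) and 8 against 17 under sunitinib. Gapt, an adaptor that binds GRB2 (chr13:110357143-110357322, minus strand), had 5 against 5 (4.54) and 2 against 5 (3.91). Dennd1c, of a family that activates RAB35 (chr17:57078469-57078648, minus strand), had 6 against 20 (2.88) and 10 against 39 (3.13). In the first 4 promoters the 2604 or 3759 other nuclei held no more than 17 fragments. Fragments of the deep nucleus were absent from the first 4 and made up 2 of the 6 at Dennd1c.

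Other short motifs were compared in the same way, all on both strands. ACAGGAAG, an ETS sequence of ERG and FLI1 that shares the core AGGAAG with the PU.1 letters but cannot match on the same core, was present in 7.76% of the 116 promoters and 3.10% of the background. The AP-1 letters TGANTCA were present in 8.62% against 4.51%, and the C/EBP letters TTGCNNAA in 14.7% against 7.51%. GAAANNGAA, bound by interferon regulatory factors, was present in 12.1% against 6.72%, and the RUNX letters TGTGGTT in 6.90% against 3.53%. CCGGAAGT, the ETS sequence common in broadly active promoters, was found in none of the 116 and in 8.12% of the background. The MAF letters TGCTGA were present in 23.3% against 14.5%, the E-box CAGCTG in 22.4% against 15.1%, and the TCF letters CTTTGAA in 4.31% against 3.02%. Most motifs compared were thus more frequent in the 116 than in this background, not the PU.1 letters alone. Over all 16407 promoters searched, the shares were 3.22% for the PU.1 letters, 6.95% for AP-1, 17.6% for MAF and 4.53% for TCF. The last was above the 4.31% of the 116. These shares describe letters within 300 bases and do not show binding. None of the 10 marker promoters matched in RefSeq held GAGGAAGT. These promoters belong to the genes that chose the nuclei, so their values are a description. The C5ar1 promoter had 10 fragments against 5 in the other nuclei under vehicle and 6 against 1 under sunitinib, and the Cd33 promoter had 9 against 2 and 4 against 3. At the F13a1 promoter the counts were 1 against 14 and 1 against 58.

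The values at the threshold of the rule were as follows, as a description. Myeloid nuclei had a median of 6 marker fragments over 4 different markers in both libraries. The markers took 0.212% of their fragments under vehicle and 0.211% under sunitinib, against 0.0191% and 0.0204% in the other nuclei, of which 63.3% and 59.4% had no marker fragment. Just inside the rule, 22 vehicle and 31 sunitinib nuclei had exactly 4 marker fragments. Just outside it, 25 and 32 nuclei had 3 fragments at a sufficient share, and 7 and 14 had at least 4 fragments at 3 to 4 times the vehicle share. Deep nuclei with at least 4 fragments but a share under 3 times that of the vehicle file numbered 35 and 71. The plot of marker fragments against depth shows both libraries, in which the median member had 7.14 and 7.46 times the vehicle share.

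**Figure D1:**
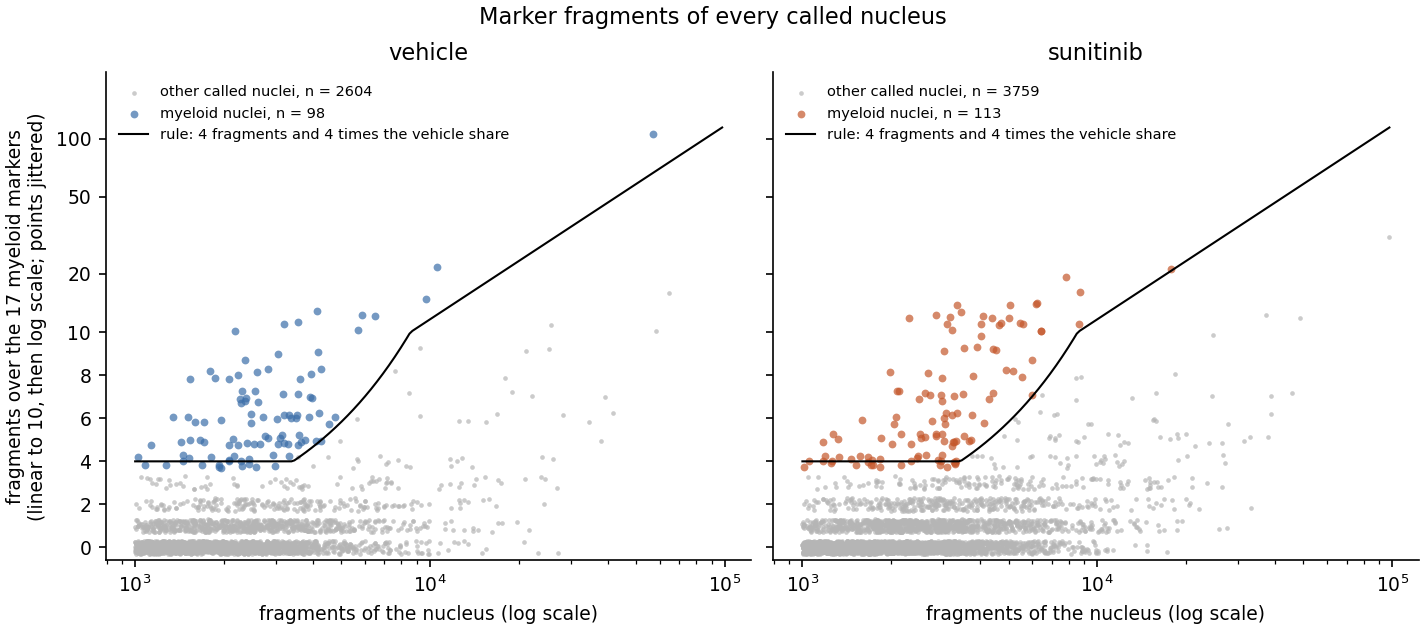
Fragments over the 17 markers (vertical axis, linear to 10 and then a log scale, points jittered) against all fragments of each called nucleus (log scale), with myeloid nuclei coloured and the rule as a line. Of 2702 vehicle and 3872 sunitinib nuclei, 98 and 113 lie on or above the line, and 1 vehicle nucleus with 57172 fragments stands apart from the other members.

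Each marker was then read in nuclei chosen by the other 16 alone, so that its own fragments had no part in the choice. All 17 markers were at least 2-fold more accessible in the chosen nuclei than in the rest, and every interval lay above 0, in both libraries. Among 8953 genes outside the marker list, 1.79% were 2-fold higher in both. The median log2 ratio of the 17 was 3.19 under vehicle and 3.30 under sunitinib, from 84 to 96 and from 87 to 112 chosen nuclei. The label of myeloid nuclei therefore held for each marker apart from its own use in the rule.

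Among the receptors, Csf1r, the CSF1 receptor (chr18:61100598-61132149), stood at 137 FPM against 17.2 in the rest under vehicle (log2 3.00, interval 2.46 to 3.50). Under sunitinib it stood at 140 against 11.4 (3.64, 3.13 to 4.10). C5ar1, the receptor for complement C5a, reached 88.8 against 7.70 and 74.1 against 5.4. Mrc1, the mannose receptor of macrophages, reached 137 against 24.1 and 172 against 25.9, and Cd33, an inhibitory lectin that binds sialic acid, 111 against 5.19 and 61.7 against 4.84. These receptors were open in the chosen nuclei of both libraries.

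Secreted and intracellular products showed the same direction. C1qb, a chain of complement C1q, reached 66.2 FPM against 3.41 under vehicle (log2 4.28) and 41.2 against 1.83 under sunitinib (4.51). Lyz2, lysozyme of granulocytes and macrophages, had 7 and 17 fragments, with 47.6 FPM against 1.91 under sunitinib (log2 3.34 and 4.65). Tyrobp, the adaptor DAP12, reached 51.0 against 2.91 and 34.1 against 4.05. Cybb, the membrane subunit of the phagocyte NADPH oxidase, reached 61.3 against 7.46 and 45.4 against 4.60. Spi1 itself gave the lowest log2 ratio under vehicle, 2.13 (136 against 31.3), and Itgam the lowest under sunitinib, 1.66 (83.6 against 26.8). The rest (Adgre1, Cd68, C1qa, F13a1, Lrrc25, Cd86 and Nlrp3) lay between 2.27 and 4.09. The plot of markers left out shows the gap between chosen and other nuclei for each.

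**Figure D2:**
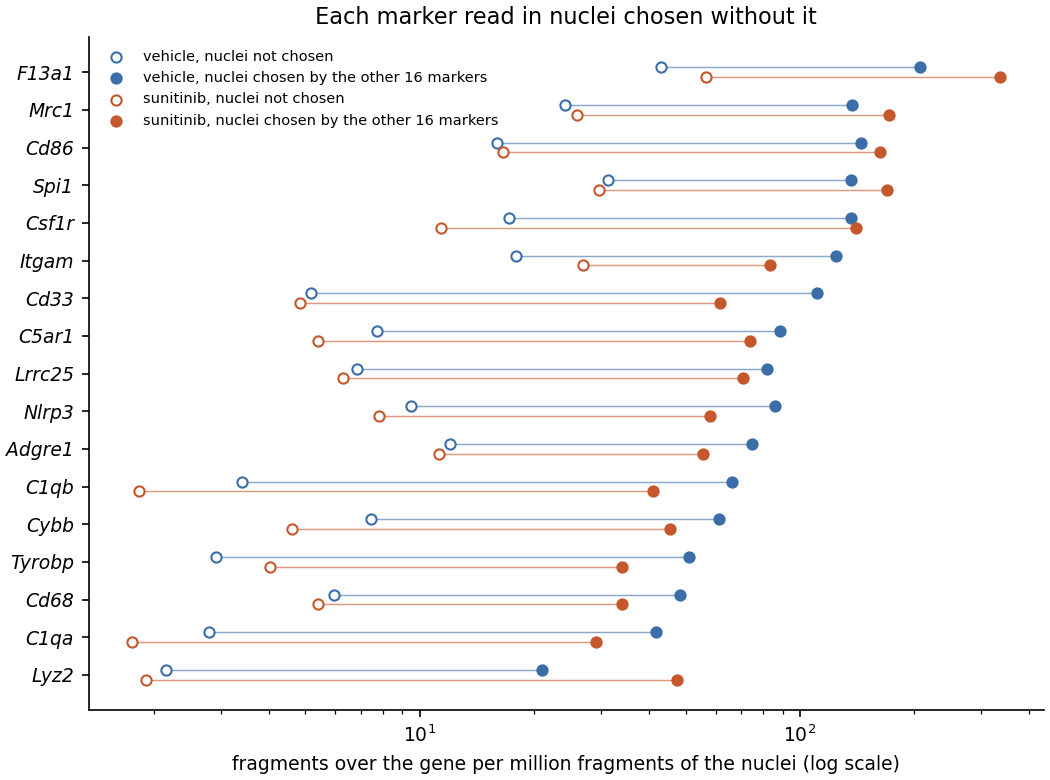
Accessibility of each of the 17 markers (FPM, log scale) in nuclei chosen by the other 16 markers (filled) and in the remaining called nuclei (open), for vehicle (blue) and sunitinib (orange). In both libraries every filled point lies to the right of its open point by at least 1 log2 unit.

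Myeloid nuclei made up 3.63% of called nuclei under vehicle (exact 95% interval 2.95 to 4.40) and 2.92% under sunitinib (2.41 to 3.50), and the intervals overlapped. The sunitinib library held more nuclei that met the same rule with T lymphocyte genes, 782 against 113, and these enter the denominator. Leaving out nuclei that met the T or B lymphocyte rule, the shares were 3.79% (3.09 to 4.61; 97 of 2558) and 3.43% (2.82 to 4.14; 105 of 3058). Among nuclei of 2000 to 4000 fragments the shares were 5.85% and 4.17%, and among those of 1000 to 2000 fragments 1.94% and 1.51%. At 4000 to 8000 fragments the order was the opposite, 3.42% and 3.88%. Among nuclei of at least 8000 fragments they were 2.5% and 1.35%, from 3 myeloid nuclei each.

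Outside the markers, 160 of 8953 genes (1.79%) were at least 2-fold higher in myeloid than in other called nuclei in both libraries, and 463 (5.17%) were at least 2-fold lower. Without the deep vehicle nucleus, 108 of these 160 genes were again past 2-fold in both. The gene with the highest smaller ratio of the libraries was Plek (chr11:16971206-17052381), which encodes pleckstrin, a substrate of protein kinase C in platelets and leukocytes. It stood at 244 FPM against 34.4 under vehicle (log2 2.83, interval 2.45 to 3.19) and 239 against 30.9 under sunitinib (2.96, 2.61 to 3.28). Its fragments came from 47 and 50 myeloid nuclei. In nuclei that met the T lymphocyte rule (called T-rule nuclei below) Plek stood at 41.3 and 27.5, and in those that met the endothelial rule at 6.90 and 9.30. The level of Plek in myeloid nuclei was thus above that of both these classes.

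Close to it was Pid1 (chr1:84036296-84364180), an adaptor that binds LRP1, with 397 against 87.1 under vehicle and 383 against 64.6 under sunitinib. Kcnk13, a two-pore potassium channel of microglia and other cells, had log2 ratios of 2.27 and 2.38. Rbm47, an RNA-binding protein, had 2.28 and 2.21, with 113 and 132 FPM also in T-rule nuclei. P2ry6, the receptor for UDP that promotes phagocytosis by microglia, had 2.05 and 2.36, and Cmklr1, the chemerin receptor, 1.70 and 1.87. All of these were higher in myeloid nuclei of both libraries.

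Genes of signalling and cell movement followed. Sirpa, the receptor for the signal CD47 that restrains phagocytosis, stood at 121 against 35.7 under vehicle and 142 against 24.1 under sunitinib, while T-rule nuclei had 0 and 8.16. Pik3ap1, an adaptor for PI3-kinase, had log2 ratios of 1.74 and 1.91. Itgb2, the common beta chain of leukocyte integrins, had 1.94 and 1.73, and Cass4, of the CAS scaffold family, 1.78 and 1.70. Pik3ap1, Itgb2 and Cass4 were also open in T-rule nuclei (79.1 and 77.0 FPM for Pik3ap1, 75.7 and 58.1 for Itgb2, 79.1 and 85.6 for Cass4). Pdgfc, a ligand of the PDGF receptors, stood at 126 and 134 FPM, with log2 ratios of 2.04 and 2.08.

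Further genes named by the same order were the cytoskeletal motor gene Myo5a, the RAC regulator Arhgap22, the mitochondrial calcium uniporter subunit Mcub, and the carbohydrate enzymes Dse and Hs3st3a1. Bend6, Fndc7 and Trim36 were also among them. Their log2 ratios lay between 1.69 and 2.06 in both libraries. In T-rule nuclei these genes stood between 3.44 FPM (Hs3st3a1, vehicle) and 55.0 FPM (Myo5a, vehicle). At the other end, Palmd had 4 and 2 fragments, at 11.8 FPM against 98.4 under vehicle and 5.25 against 78.5 under sunitinib. Car8 had 3 fragments in each library (log2 −2.96, interval −5.46 to −1.62, and −3.12, −5.63 to −1.80). Wt1, a transcription factor of the epicardium, stood at 8.83 against 67.7 and 5.25 against 49.8. Tbx3, a transcription factor of the conduction system, stood at 5.88 against 51.3 and 5.25 against 44.5.

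**Figure D3:**
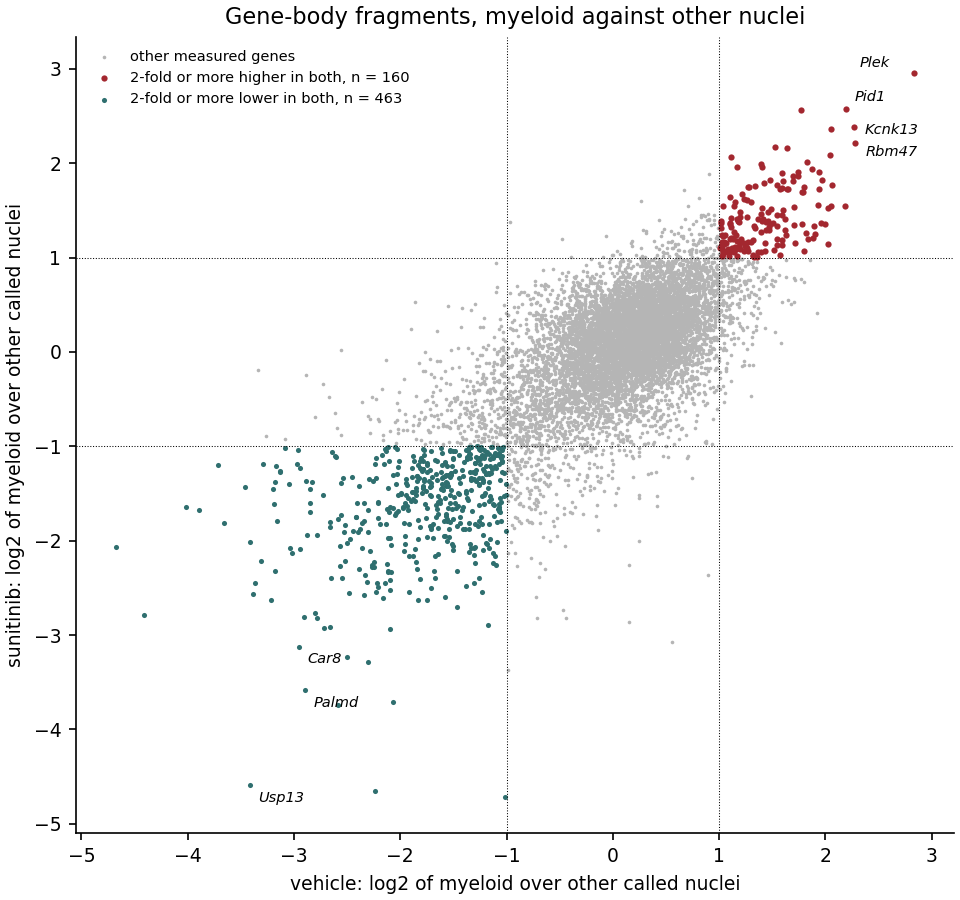
Log2 ratio of myeloid over other called nuclei for each of 8953 genes, vehicle on the horizontal and sunitinib on the vertical axis, with dotted lines at 2-fold. Red points (160) were past 2-fold higher and green points (463) past 2-fold lower in both libraries, with Plek at the upper right; points far down the lower left rest on few fragments.

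Gene groups were read by their summed fragments. A gene counted as measured with 50 or more fragments over the called nuclei and 10 or more expected in the myeloid ones, in each library. The median log2 ratio of all measured genes was 0.13 under vehicle and 0.10 under sunitinib. Of all 8953 measured genes, 1.79% were at least 2-fold higher in both libraries and 5.17% at least 2-fold lower. Beside these shares, a count of 0 members past 2-fold in a short list says little about that list. Signalling genes shared by blood cells had a log2 ratio of 1.44 and 1.18, and 11 of the 15 measured were at least 2-fold higher in both libraries. Among them Lcp1, the actin-bundling protein L-plastin, had 2.05 and 1.55. Inpp5d, the lipid phosphatase SHIP1, had 1.99 and 1.35. The kinases Lyn (1.14 and 1.55) and Syk (2.02 and 1.14) carry signals from Fc receptors. Ptprc, the leukocyte antigen CD45, stood at 159 FPM against 43.2 under vehicle and 249 against 99.1 under sunitinib.

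Complement genes outside the rule had a summed log2 ratio of 1.60 and 1.42. C1qc, which lies beside the markers C1qa and C1qb, stood at 58.8 against 2.53 (20 fragments) and 36.7 against 2.55 (14). C3ar1, the receptor for C3a, had log2 ratios of 3.43 and 3.54. Cytokine and chemokine genes had 1.38 and 1.47 together. Il1b, interleukin-1 beta, had 12 fragments at 35.3 FPM against 3.16 under vehicle, and 10 at 26.2 against 2.31 under sunitinib. Ccl9 had 38.2 against 2.41 and 47.2 against 2.55, and Osm, oncostatin M, 47.1 against 5.57 and 52.5 against 8.91. Of the 3 measured cytokine genes, Pdgfc was past 2-fold higher in both libraries, Tgfb1 had 0.98 and 0.63, and Vegfa, the endothelial growth factor, was past 2-fold lower (−1.24 and −1.01). C1qc, C3ar1, Il1b, Ccl9 and Osm were under the minimum for measured genes, rested on 10 to 20 fragments each, and are shown because they were past 2-fold in both libraries or led their list.

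Inflammasome genes had summed ratios of 1.55 and 1.16. Aim2, a sensor of cytosolic DNA, had 1.96 and 1.37, and Nlrc4, which assembles on bacterial ligands bound by NAIP proteins, 3.49 and 2.33. NADPH oxidase genes had 1.33 and 1.16, with Ncf4 (p40phox) at 1.78 and 2.19. Antigen presentation genes had 1.14 and 1.09. Of the 5 measured, 0 were past 2-fold higher in both libraries, where 1.79% of all measured genes were. Cd74, the invariant chain, stood at 112 against 14.9 and 131 against 14.5, and Cd83, a marker of activated antigen-presenting cells, had log2 ratios of 2.22 and 2.91. H2-Eb1, an MHC class II chain, had 2.14 and 1.78. Nlrc4, Cd74, Cd83 and H2-Eb1 were not among the measured genes, and the inflammasome list had only 1 measured gene.

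Lysosome genes had summed ratios of 0.98 and 0.90, and 2 of the 13 measured, Hexa (1.59 and 1.90) and Ctsb (1.15 and 1.24), were past 2-fold in both. The counts past 2-fold in this paragraph stand beside 1.79% of all measured genes. Ctsc, cathepsin C, which was not among the measured genes, stood at 112 against 14.7 and 115 against 18.1. For phagocytosis genes the values were 0.84 and 0.88, and 3 of 11 measured members passed 2-fold in both, namely Itgb2, Sirpa and Vav1. Mertk, the efferocytosis receptor, had 0.98 and 1.23. Myeloid transcription factors had 0.75 and 0.60, with 1 of 18 past 2-fold in both, Mitf at 1.13 and 1.21. Runx1 had 1.42 and 0.80. Growth factor receptor genes had 0.63 and 0.76, with Tnfrsf1b past 2-fold (1.02 and 1.16) as 1 of 15. Pattern recognition genes had 0.86 and 0.81 (1 of 10, Tlr4 at 1.34 and 1.31), and lipid and iron genes 0.43 and 0.63 (1 of 11, the cholesterol transporter Abca1 at 1.02 and 1.39). Interferon response genes stood at −0.03 and −0.04, with 0 of 7 past 2-fold in both, a count near the share of all measured genes.

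The markers of other cells were mostly lower. Cardiomyocyte genes stood at 194 FPM against 731 under vehicle (log2 −1.90) and 291 against 662 under sunitinib (−1.18). Endothelial genes stood at 509 against 1360 and 540 against 1272. T lymphocyte genes stood at 309 against 466 and 470 against 960, fibroblast genes at 224 against 356 and 215 against 317, and mural genes at 247 against 320 and 254 against 295. For mural genes the sunitinib interval included 0 (log2 −0.20, −0.52 to 0.08). In vehicle myeloid nuclei 14 of 15 T lymphocyte genes had fragments, as did 9 of 10 cardiomyocyte, 9 of 10 fibroblast and 9 of 10 mural genes. The genes of these lists at 0 were Cd3e, Nppa, Lum and Kcnj8, and under sunitinib only Lum. Of the endothelial list, Flt1 stood at 58.8 against 233 and 73.4 against 196. Other class rules were also met by 1 vehicle nucleus (T lymphocyte) and by 11 sunitinib nuclei, of which 7 met the T lymphocyte rule. B lymphocyte genes were lower in sum (−0.51 and −0.66), apart from Bank1, an adaptor of B cells and some myeloid cells, at 1.83 and 1.19.

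Within the myeloid nuclei, genes of resident macrophages outside the rule had a summed ratio of 1.29 and 1.17. Lyve1, a hyaluronan receptor of resident heart macrophages, stood at 50.0 FPM against 11.0 and 47.2 against 6.36. Timd4, a receptor for phosphatidylserine, had 11 and 8 fragments (log2 2.76 and 2.44), and Folr2, a folate receptor, 16 and 15 (2.40 and 2.58). Genes of monocytes and recruited macrophages had a lower sum, 0.44 and 0.46. Cx3cr1, the fractalkine receptor, supplied the largest part of it with 114 and 123 fragments and stood at 335 against 253 and 323 against 259. Its RefSeq promoter held only 5 fragments against 5 under vehicle and 0 against 4 under sunitinib. Nearly all fragments over Cx3cr1, in myeloid and other nuclei alike, thus lay outside that promoter. Ccr2, the chemokine receptor of recruited monocytes, had 4 and 9 fragments (2.09 and 2.26). Neutrophil genes had 1.05 and 1.49 on 44 and 68 fragments, but Ngp, Camp, Mpo and S100a9 were at 0 under vehicle and S100a8 and Retnlg at 0 under sunitinib. Dendritic cell genes had 0.60 and 0.24, with Itgax at 2.40 and 1.71. Measured genes numbered 4 in the resident, 3 in the monocyte, 0 in the neutrophil and 4 in the dendritic cell list. Of these, 0 passed 2-fold in both libraries, beside 1.79% of all measured genes. Lyve1, Timd4, Folr2, Ccr2 and Itgax were therefore not among the measured genes.

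**Figure D4:**
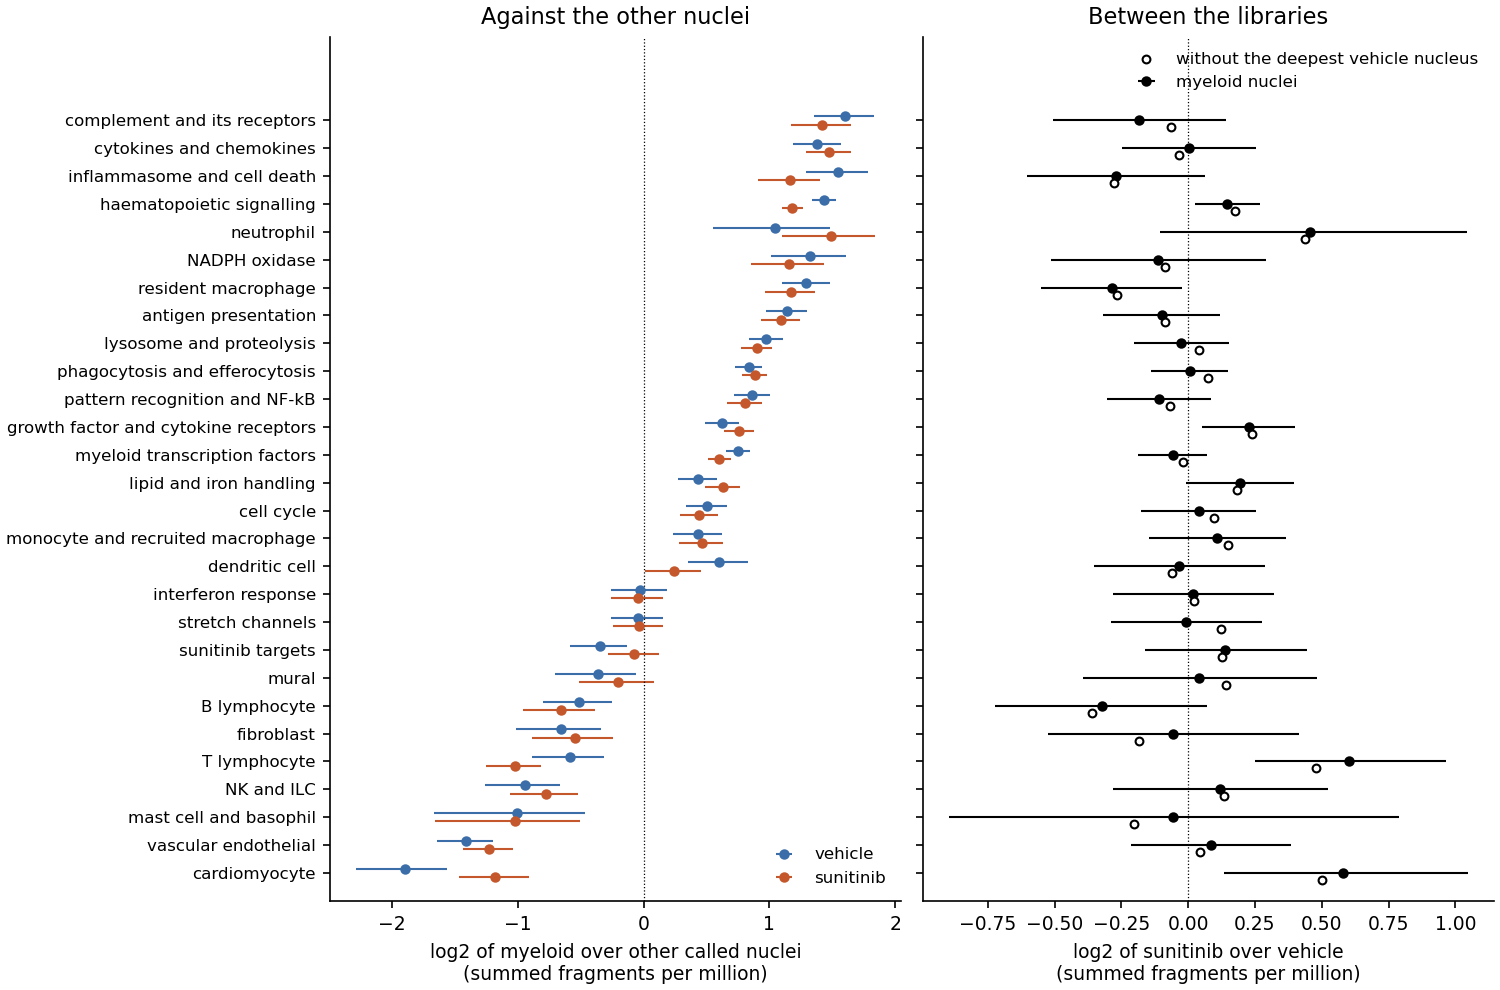
Log2 ratios of summed FPM for each gene list, ordered by level, with 95% counting intervals. Left, myeloid over other called nuclei in vehicle (blue) and sunitinib (orange), where complement (1.60 and 1.42) is near the top and cardiomyocyte (−1.90 and −1.18) and endothelial genes (−1.41 and −1.23) are lowest; right, sunitinib over vehicle within myeloid nuclei, with open circles leaving out the deep vehicle nucleus.

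Accessible windows were sought next, in steps of 500 bp across the genome and at least 10 kb from any marker. Under vehicle, 87 of 1219 windows with at least 10 myeloid fragments had at least 4 times the frequency of the other nuclei. Read in the sunitinib library, 69 of the 87 (79.3%) were at least 2-fold higher in myeloid nuclei, with a median log2 ratio of 2.38, whereas 12.5% of all 1219 windows were. Of the 87, 33 were intergenic, 29 intronic, 23 in an exon with untranslated sequence and 2 in another exon, and 29 lay within 1 kb of a start site. Without the deep vehicle nucleus 28 of 454 windows were chosen, and 19 of these (67.9%) were 2-fold higher under sunitinib, with a median of 1.56.

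The window with the highest smaller ratio was intergenic, at chr1:107584000-107584499 (mm10), 5757 bp from the start of Serpinb8, a serine protease inhibitor. It held 10 myeloid fragments from 9 nuclei against 1 fragment of the other nuclei under vehicle, and 5 from 4 nuclei against 1 under sunitinib. A window in an intron of Fndc3b (chr3:27650000-27650499) held 10 against 3 and 9 against 5. Intergenic windows near Prss30 (chr17:23967000-23967499) and Lifr (chr15:7085000-7085499) held 10 against 2 and 6 against 7, and 11 against 10 and 8 against 9. At the Lifr window 6 of the 11 vehicle fragments came from the deep nucleus. The last, 113349 bp from Hlx (chr1:184618000-184618499), held 10 against 5 and 7 against 11. Each of these 5 windows thus held at least 5 fragments from myeloid nuclei, beside at most 11 from the 2604 or 3759 others.

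Between the libraries, myeloid nuclei differed at few genes by the fold used. Compared were 722 genes with 100 or more fragments in sum over the libraries and 30 or more expected in each, with a median log2 ratio of 0.00 for sunitinib over vehicle. At least 1.5-fold higher under sunitinib were 21 genes (2.91%), and 26 (3.6%) were at least 1.5-fold lower. Without the deep vehicle nucleus the lower count was 11. No gene passed 2-fold in either direction. Each of these is a difference between 2 single libraries.

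The highest ratios belonged to Fars2, the mitochondrial phenylalanyl-tRNA synthetase, and Nipbl, which loads cohesin onto chromatin. Each had 40 fragments under vehicle and 81 under sunitinib, or 118 and 212 FPM (log2 0.84, interval 0.29 to 1.44). In the other called nuclei the same difference was 0.11 for Fars2 and 0.15 for Nipbl. Ago2, the slicer of RNA interference, went from 38 to 73 fragments (0.77, 0.19 to 1.38), and Dhrs3, which reduces retinaldehyde, from 43 to 82 (0.76, 0.22 to 1.33). Ptpn1, the phosphatase PTP1B, had 39 and 74 fragments (0.75), and Cyfip1, of the WAVE complex that drives actin branching, 47 and 87 (0.72). Cyfip1 stood at −0.27 in the other nuclei. Plekhm3, Sptbn1, Stk4 and Clec16a followed, with 0.68 to 0.70. Without the deep vehicle nucleus Plekhm3 (0.56), Stk4 (0.54) and Clec16a (0.45) were under 1.5-fold, and Clec16a differed by 0.56 in the other nuclei. Fragments came from more nuclei under sunitinib in each case, for example 53 against 26 for Nipbl.

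The lowest ratio was that of Lmna, which encodes the lamins A and C of the nuclear envelope, with 64 fragments under vehicle and 37 under sunitinib (188 and 97.1 FPM, log2 −0.95, −1.58 to −0.35). Of the 64, 23 came from 1 nucleus, and without the deep vehicle nucleus the ratio was −0.58. Arhgap10, a GTPase-activating protein for CDC42 and RHOA, had 93 and 56 fragments (−0.89, −1.40 to −0.40) and −0.94 without that nucleus, against 0.02 in the other called nuclei. Cntnap2, a neuronal adhesion gene of great length, had 71 and 44 (−0.85). Atxn7, of the SAGA complex, had 67 and 43 (−0.80). Cttnbp2nl and Prune2 had −0.80 and −0.77, with 19 fragments from 1 vehicle nucleus each, and −0.65 and −0.56 without the deep nucleus. Ptpro, a receptor tyrosine phosphatase of macrophages and podocytes, had 60 and 41 (−0.71) over the gene, but 0.93 within 1 kb of start sites. Gm37013 and Gm37388 are overlapping gene models on chromosome 18 that shared their 90 and 62 fragments.

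**Figure D5:**
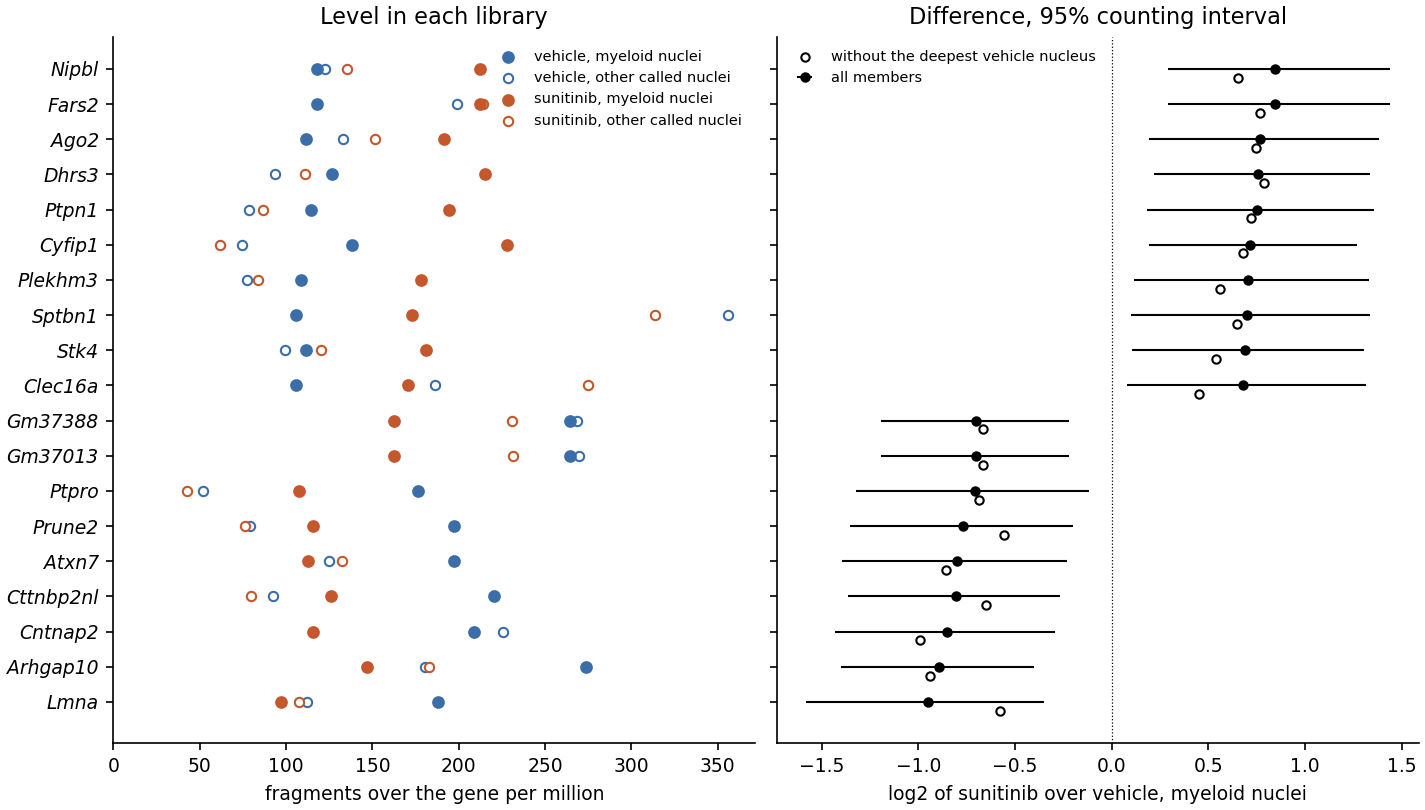
Left, FPM over the 10 highest and 9 of the 10 lowest genes in myeloid (filled) and other called (open) nuclei of vehicle (blue) and sunitinib (orange). Right, log2 of sunitinib over vehicle in myeloid nuclei with 95% counting intervals, where open circles leave out the deep vehicle nucleus and move Lmna from −0.95 to −0.58.

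The 17 markers were compared between the libraries in nuclei chosen by the other 16. Their median log2 ratio of sunitinib over vehicle was −0.42, and 6 of 17 were higher under sunitinib. These ratios are not free of the rule, because a nucleus rich in 1 marker can enter with fewer fragments of the rest. In the myeloid nuclei F13a1 held 106 of 721 marker fragments under vehicle and 186 of 803 under sunitinib. Its part in the ratios of the other markers was not tested. Csf1r stood at 137 and 140 FPM (0.04, −0.58 to 0.66). F13a1, the A chain of coagulation factor XIII (chr13:36867178-37050244), had 66 and 108 fragments, or 207 and 337 FPM (0.70, 0.25 to 1.17). In the remaining nuclei F13a1 stood at 43.1 and 56.5 FPM. Cd33 (chr7:43524216-43544428) had 37 and 22, or 111 and 61.7 (−0.83, −1.68 to −0.05). For the other 15 markers the interval included 0, among them C1qb at −0.67 and Lyz2 at 1.13 (−0.16 to 2.70). Differences at those 15 were not detectable at this depth.

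Resident macrophage genes had 249 fragments under vehicle and 229 under sunitinib, or 733 and 601 FPM (log2 −0.29, −0.55 to −0.02). In the other called nuclei this list differed by −0.16. Of its 3 members with at least 50 fragments, 2 were higher under sunitinib and 1 was lower, with a median of 0.00. Cd163, the scavenger receptor for haemoglobin bound to haptoglobin, had 38 and 16 fragments, or 112 and 42.0 FPM (−1.39, −2.36 to −0.54). In the other called nuclei Cd163 stood at 6.58 and 8.83. Of the other leading members, Slco2b1 stood at 0.25, Maf at 0.00 and Stab1 at −0.57. Monocyte genes had 688 and 742 FPM (0.11, −0.15 to 0.37). Nuclei with at least 3 fragments over the resident list and fewer over the monocyte list numbered 24 of 98 under vehicle (24.5%, 16.4 to 34.2) and 13 of 113 under sunitinib (11.5%, 6.27 to 18.9). Those with the converse numbered 10 (10.2%) and 25 (22.1%, 14.9 to 30.9), while 13 and 20 met both and 51 and 55 neither. These counts depend on the fragments of a nucleus, whose median was higher under sunitinib. Fragments over the monocyte list were also found in 67.0% of the other called nuclei under vehicle and 71.3% under sunitinib. For the resident list these shares were 49.0% and 46.0%. The same split is not given for the other nuclei, so the counts do not separate kinds of macrophage.

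Other groups differed by less, beside 1541 of 3132 genes with at least 50 fragments that were higher under sunitinib. Growth factor receptor genes had 481 and 631 fragments (0.23, 0.05 to 0.40), with 8 of the 11 members of at least 50 fragments higher. Tgfbr2, the type II TGF-beta receptor, had 66 and 103 (0.47, 0.02 to 0.95). Blood cell signalling genes had 1018 and 1264 fragments (0.15, 0.03 to 0.27), with 10 of 16 higher, beside 0.40 in the other nuclei. Ptprc had 54 and 95 (0.64, 0.15 to 1.16), but in the other nuclei it differed by 1.20. Dock2, which activates RAC in leukocytes, had 58 and 99 (0.60, 0.12 to 1.10) and 0.49 in the other nuclei. Itgb5, an integrin chain that binds apoptotic cells with its alpha partner, had 51 and 86 (0.58, 0.07 to 1.12).

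Lower under sunitinib was Nlrc4, with 33 and 16 fragments (−1.19, −2.17 to −0.31). H2-DMa, which helps load peptides on MHC class II, had 61 and 43 (−0.66, −1.27 to −0.08), and Map3k8, the kinase TPL2, 38 and 24 (−0.82, −1.63 to −0.05). H2-Ab1 had 33 and 19 (−0.95, −1.86 to −0.11) and was picked out after its values were seen. The other single list genes compared between the libraries, here and above, are also a selection, made from 29 gene lists. Members past the fold were named by their values. No interval was adjusted for the number of genes read, and some would exclude 0 by counting error alone. The lists these genes belong to had intervals that included 0, with inflammasome genes at −0.27 (−0.60 to 0.06) and antigen presentation at −0.10. Cytokine genes stood at 0.00, interferon genes at 0.02 and phagocytosis genes at 0.01.

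T lymphocyte genes were also higher in the myeloid nuclei under sunitinib, at 309 and 470 FPM (0.60, 0.25 to 0.97), beside 1.04 in the other nuclei. Without the myeloid nuclei that met another class rule the difference was 0.27. Cardiomyocyte genes stood at 194 and 291 (0.58, 0.13 to 1.05), and at 0.15 without those nuclei. The highest single nucleus had 3274 and 3054 FPM over T genes and 2643 and 3081 over cardiomyocyte genes. B lymphocyte genes were at −0.32 (−0.72 to 0.07) and endothelial genes at 0.09. The part of other cells' fragments in the differences between the libraries was not tested.

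Of the kinases that sunitinib blocks, Csf1r, itself a marker of the rule, had the most fragments in myeloid nuclei (60 and 71). Flt3, a receptor of dendritic cell precursors, had 17 and 39 (50.0 and 102 FPM, 1.01, 0.18 to 1.95), and it differed by 0.87 in the other nuclei too. Flt1 had 20 and 28 fragments, Kdr 16 and 21, Pdgfrb 20 and 21, Pdgfra 11 and 10, Ret 8 and 7, and Flt4 3 and 6. Kit, the receptor for stem cell factor, had 11 and 2 (−2.37, −5.84 to −0.43), and differed by −0.10 in the other nuclei. Together the 9 genes differed by 0.14 (−0.16 to 0.44). Piezo1, the stretch-gated channel named in the study's title (chr8:122481698-122551329), had 54 and 45 fragments in myeloid nuclei. It stood at 159 and 118 FPM (−0.43, −1.03 to 0.17) against 130 in the other nuclei of both libraries, and the ratio was −0.23 without the deep nucleus. A difference in Piezo1 between the libraries was therefore not detectable at this depth, and the 11 stretch channel genes together differed by −0.01 (−0.29 to 0.28).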

How the data were processed

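Single-nucleus multiome libraries of mouse heart were used through their ATAC fragment files, while their RNA was not analysed here. The fragments come from cellranger-arc 2.0.0 and mm10, per the file headers (2.0.2 for the unused sunitinib plus Yoda1 library), and each line the authors deposited holds a count of read pairs behind 1 unique fragment of 1 barcode. The submitters' processing notes also name Signac. Nothing in the files is normalized, all barcodes are kept, and no cell calls were used.

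Start site enrichment compared fragment ends within 50 bp of a start with those 1900 to 2000 bp away. Fragments overlapping a gene or the 2 kb upstream of it (GENCODE M21, 21728 protein-coding genes) were summed over nuclei and divided by all their fragments. To each count 0.5 was added before log2 ratios, with conditional exact 95% intervals. Shares had exact Clopper-Pearson intervals. Fragments are PCR copies collapsed by position and intervals cover counting error only. With 1 library per group there was no test. The other cell classes used the same rule with their own marker lists, and 2 list genes had no match. Named genes were the 10 highest and 10 lowest between libraries among autosomal genes whose direction held without the 5% deepest nuclei. Against other nuclei they were the 20 highest by the smaller of both libraries' ratios, then the 17 markers, Piezo1, the kinases sunitinib blocks, the 4 members of each list with most fragments, and any past the fold. Only a selection of the last kinds is printed, and members with values printed beyond these, such as Timd4, Folr2, Ccr2, C3ar1, Il1b and Itgax, were past 2-fold in both libraries. The 10 lowest genes against other nuclei were ranked in the same manner, and 4 are printed. Motifs were searched in RefSeq promoters in place of windows, for which no genome sequence was used. The members, lists and rules were chosen with earlier results of these data known, and the choice of promoters was made after the data were seen. Gene ratios and their intervals were tried on simulated counts drawn independently for each gene. Such counts do not hold the clustering of fragments in single nuclei, so the trial does not cover it. Python 3.11.15, numpy 2.4.6, pandas 2.3.3 and scipy 1.17.1 were used. Some named genes and 1 window are left out of the text.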

Additional observations from a re-analysis of the deposited data

How the results depend on the processing

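The share of myeloid nuclei moved with the rule and was lower under sunitinib in each setting of the rule below. Shares are given as vehicle then sunitinib, with those outside the T and B rules after them. These settings reuse the same barcodes and are given without intervals. Among nuclei of 4000 to 8000 fragments the order was the opposite (3.42% and 3.88%). With at least 2000 fragments per nucleus the shares were 5.04% and 3.82% (5.26% and 4.49%). With at least 6 marker fragments they were 1.92% and 1.58% (2.03% and 1.96%), and with 6 times the vehicle share 2.66% and 2.01% (2.78% and 2.49%). Without F13a1 and Mrc1 as markers they were 2.74% and 1.91% (2.85% and 2.29%). After thinning every nucleus to 1000 fragments they were 0.777% and 0.671% (0.821% and 0.818%, nearly equal). The counts of genes 1.5-fold higher and lower, 21 and 26, became 7 and 7 with at least 6 marker fragments, 7 and 9 with 6 times the share, and 10 and 10 without F13a1 and Mrc1. They became 3 and 15 within 1 kb of start sites, 1 and 2 with nucleosome-free fragments alone, 207 and 196 with a minimum of 50 fragments, and 0 and 0 at 2-fold. With the members thinned to 1000 fragments, a minimum of 30 fragments and 10 expected (chosen after seeing the data) they were 69 and 76, and too few genes met the main minimum to give a count. The lower count was 17 with at least 2000 fragments, 17 without nuclei of another class, 8 without the 5% deepest and 11 without the deep vehicle nucleus (added after seeing the data). Without that nucleus 28 windows were chosen, of which 67.9% passed 2-fold under sunitinib, and windows at 6 times the frequency passed in 92.1%. The rule applied after thinning gave 2 genes higher and 30 lower than in other nuclei. Directions turned for Ptpn1 (−0.21) and Plekhm3 (−0.12) with that rule, for Plekhm3 with thinned members (−0.11) and for Ptpro (0.93) near start sites. The other 17 of the 20 named genes kept their direction in every alternative that gave a value, and the resident macrophage list in 15 of 15. Naming had required the direction to hold without the 5% deepest nuclei, which is among these alternatives. All settings also reuse the same libraries, so the agreement is largely built in and is not independent support. Of the 160 genes higher in both libraries, 119 remained with at least 2000 fragments and 71 with 6 times the share. The cause of these shifts was not tested. No paired analysis was possible because each group had 1 library.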
